A study of Mus musculus with 18 samples.

Results

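The ISG15 conjugation system was described here through its 5 genes in the mouse, Isg15, Uba7, Ube2l6, Herc6 and Usp18, which were chosen by name, with earlier results of these data known, out of 13599 genes with a value in the series. Peritoneal macrophages came from TLR4-WT mice (labelled WT) and from mice carrying TLR4-K730R or TLR4-K810R, in which a lysine of the intracellular TIR domain of the LPS receptor is replaced by arginine. The mutations were made with CRISPR/Cas9 on a C57BL/6 background, and the cells were elicited into the peritoneum with thioglycolate. Cells of each genotype either stayed untreated (control) or received LPS at 100 ng/ml over 6 h, which gave 6 groups of 3 RNA-seq libraries. Age, the number of founder lines and the number of animals behind a library are not given in the sources used here, so the p-values measure the spread between these libraries, which may be technical.

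ISG15 is a small ubiquitin-like protein that is attached to lysines of other proteins by its own enzyme cascade. UBA7 is the activating enzyme (E1), UBE2L6 the conjugating enzyme (E2) and HERC6 the main ligase (E3) in the mouse, whereas USP18 is the protease that removes ISG15 again. USP18 also binds a chain of the type I interferon receptor and restrains its signalling. All 5 genes are known as interferon-stimulated genes. In macrophages LPS reaches them through TLR4, the adaptor TRIF and the factor IRF3, which induce interferon-β, and secreted interferon then activates the transcription factor complex ISGF3, of which STAT2 and IRF9 are part.

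ISGF3 binds the interferon-stimulated response element (ISRE), and the promoter of Isg15 is shown because it carries this element in a repeated form. The core GAAANNGAAA was searched on both strands of the 300 bases around each gene start (RefSeq, GRCm38.p6) and is present in 3.44% of 32851 promoters. In the Isg15 promoter it matched 3 times on the strand of the gene, in overlapping copies that run from 78 to 57 bases upstream of the start. The window at chr4:156200860-156200911, minus strand, is given 5′ to 3′, with the 3 overlapping matches in capitals.
Isg15: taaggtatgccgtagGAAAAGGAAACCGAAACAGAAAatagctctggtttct
No match was found in the windows of Uba7, Ube2l6 and Herc6, which says only that these letters are absent there. The shorter IRF core AANNGAAA, held by 23.9% of promoters and overlapping the ISRE core, matched 4 times in Isg15, once in Uba7 and not in Ube2l6 or Herc6. Of the 5 genes 4 were matched in the promoter table, and Usp18 was not.

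The deposited values are FPKM (fragments normalized for transcript length and library size) of transcript events such as first and last exons, in 80071 to 90401 rows per library. Counts of reads are not among them, and the depth of a library is therefore unknown. For each gene the FPKM of first-exon events and of last-exon events were summed, and the higher of both sums was its level. A gene can be listed at 0 where it is expressed. The macrophage gene Cd14 was listed at 0 in all 3 libraries of 5 groups, and 53 tested genes were at 0 beside a replicate above 5 FPKM. The 6 listed macrophage markers, Cd14 included, summed to 11587 to 14738 FPKM in control and 6877 to 9811 FPKM in LPS-treated libraries, and were lower with LPS in each genotype without overlap. T cell markers summed to at most 0.958 FPKM. Of 5 NK cell markers Gzma alone was listed, at up to 0.255 FPKM. Tlr4 itself was at 9.31 to 14.2 FPKM in control and 4.18 to 5.72 FPKM in LPS-treated libraries of all genotypes, and a single changed codon cannot be checked by its level. Libraries of one group correlated at r of 0.961 to 0.975 across genes.

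Of the 5 genes, 4 had a value above 0 in every library and were tested, and all 4 rose after LPS in all 3 genotypes. Usp18 had the largest rise and was the gene of the 4 that differed most from TLR4-WT in control cells of both mutants. It was 3.4 times lower in control TLR4-K730R and 5.16 times lower in control TLR4-K810R than in control TLR4-WT macrophages. After LPS no difference between genotypes passed the test for any of the 4 genes. The plot of levels by library shows these values.

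**Figure D1:**
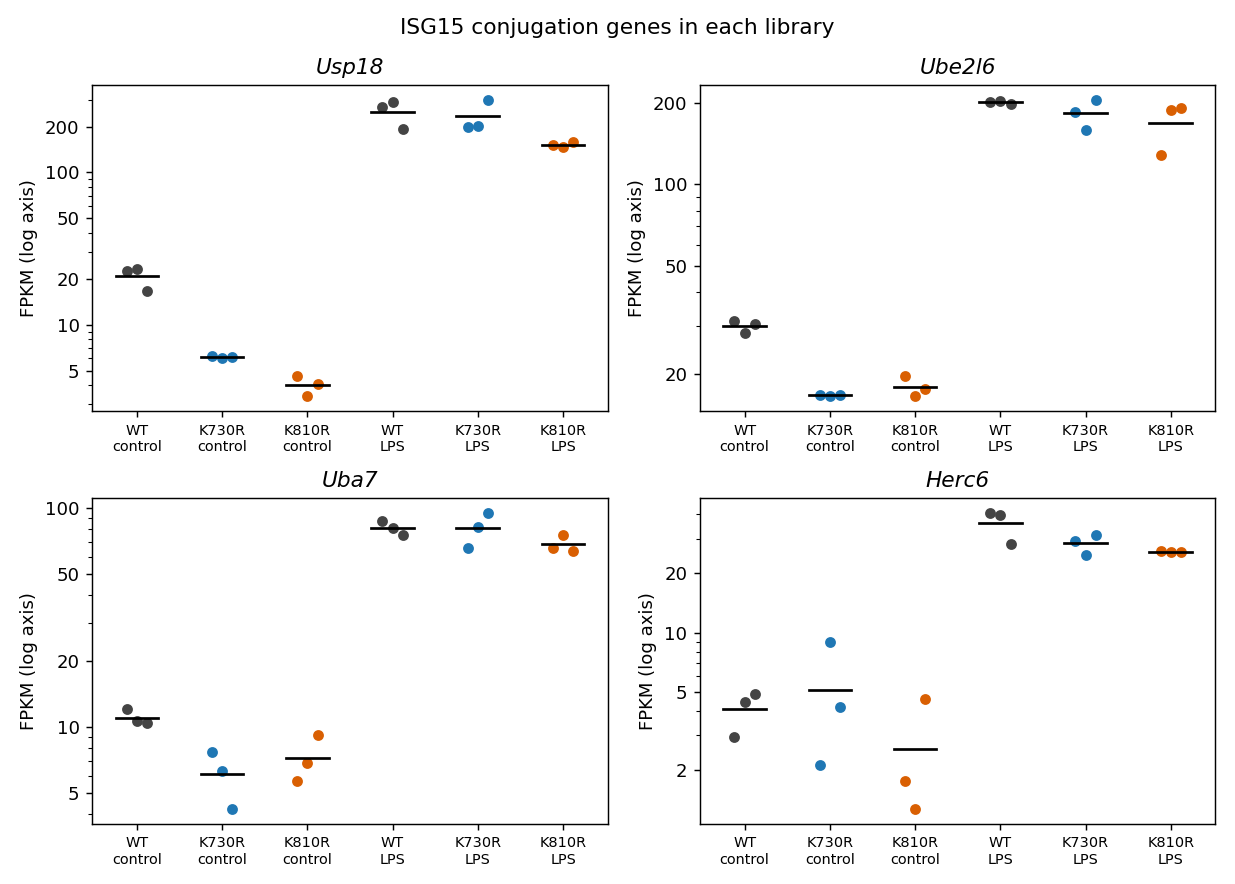
Level of Usp18, Ube2l6, Uba7 and Herc6 in each library as FPKM on a log axis, with 1 point per library, the group mean as a line and n = 3 per group. All LPS-treated libraries lie above all control libraries for each gene. The control libraries of both mutants lie below those of TLR4-WT for Usp18 (3.39 to 6.24 against 16.6 to 23.1 FPKM) and Ube2l6 (16.6 to 19.7 against 28.4 to 31.4 FPKM). They do so for Uba7 too (4.22 to 9.18 against 10.4 to 12.1 FPKM), which did not pass the test.

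For Isg15 (ENSMUSG00000035692, chr4:156199424-156200818, minus strand of GRCm38), the modifier, no test result was used, a choice made because it was listed at 0 in 14 of 18 libraries. Its own-strand events were listed in 4 of 18 libraries, all treated with LPS. They stood at 254 and 212 FPKM in TLR4-WT replicates 1 and 3 and at 218 and 177 FPKM in TLR4-K810R replicates 1 and 2. In the other 14 libraries Isg15 was listed at 0, among them TLR4-WT replicate 2, TLR4-K810R replicate 3 and all 3 TLR4-K730R libraries with LPS, and in these 5 LPS libraries Usp18 was at 158 to 300 FPKM, beside 147 to 267 FPKM in the 4 libraries with Isg15 events. A value of 0 is thus not read as absence of the transcript, and no fold change is given.

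Uba7 (ENSMUSG00000032596, chr9:107975505-107984060, plus strand), the E1, has no events under its own gene number. Its exons were listed under the number of the neighbouring gene Ip6k1, so Uba7 was valued by position, from events lying wholly within its span. The span also overlaps Gm20661 on the same strand, and reads shared by both genes cannot be told apart. Uba7 stood at 12.1, 10.6 and 10.4 FPKM in control TLR4-WT libraries, 7.69, 6.31 and 4.22 in control TLR4-K730R and 5.69, 6.81 and 9.18 in control TLR4-K810R. With LPS it reached 87.8, 81.5 and 75.3 FPKM in TLR4-WT, 65.7, 82.5 and 95.6 for TLR4-K730R and 65.9, 75.8 and 63.7 for TLR4-K810R. The lowest LPS library was thus far above the highest control library, and the LPS groups overlapped between TLR4-WT and both mutants. The means rose 7.38-fold, 13.4-fold and 9.48-fold in TLR4-WT, TLR4-K730R and TLR4-K810R. As log2(FPKM + 1), a scale on which changes of low genes come out too small, the rise was 2.78 ± 0.19 (SE), 3.56 ± 0.19 and 3.10 ± 0.19, with limma adjusted p of 7.76e-09, 4.05e-10 and 2.07e-09.

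The control libraries of both mutants lay below those of TLR4-WT for Uba7, but the differences of -0.80 (adjusted p = 0.0866) and -0.57 (adjusted p = 0.136) on the log2 scale did not pass the limma test. The first exon at the annotated start of Uba7 carried 69.5% to 99.4% of the first-exon FPKM, with a median of 83.1%. The files also list intron events in an ON and an OFF form, which they do not define. At chr9:107977475-107977852 the share of the ON form in the FPKM of both was 1.39% in the median library and 76.3% in control TLR4-K730R replicate 3. That library also had the highest ON share at chr9:107979458-107979544 (23.6%) and chr9:107981296-107981390 (9.71%), and it was the lowest of all libraries in Uba7 level. At the other 2 listed introns another library was highest, with TLR4-WT replicate 1 with LPS at 3.26% for chr9:107975965-107976055 and TLR4-K730R replicate 1 with LPS at 99.7% for chr9:107981296-107981518, where the median was 47%. The share of 99.7% compares values near the floor, with the ON form at 0.126 FPKM and the OFF form at 0.000399 FPKM. Its ON event is also the one used for chr9:107981296-107981390.

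Ube2l6 (ENSMUSG00000027078, chr2:84798828-84810335, plus strand), the E2, varied least of the 4 genes among control libraries of a group, relative to its level. It was at 31.4, 28.4 and 30.5 FPKM in control TLR4-WT, 16.8, 16.7 and 16.8 in control TLR4-K730R and 19.7, 16.6 and 17.7 in control TLR4-K810R. With LPS it was at 201, 203 and 197 FPKM in TLR4-WT, 185, 158 and 205 for TLR4-K730R and 128, 188 and 191 for TLR4-K810R. Control TLR4-WT libraries did not overlap with those of either mutant, whereas with LPS the TLR4-K730R libraries spanned those of TLR4-WT and the TLR4-K810R libraries lay below them. The means rose 6.64-fold, 10.9-fold and 9.38-fold after LPS, by 2.69 ± 0.14, 3.37 ± 0.14 and 3.14 ± 0.14 on the log2 scale (limma adjusted p = 3.52e-10, 2.3e-11 and 5.65e-11).

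In control cells Ube2l6 was 1.8 times lower in TLR4-K730R (log2 difference -0.81, 95% interval -1.10 to -0.52, adjusted p = 0.00972) and 1.67 times lower in TLR4-K810R (log2 difference -0.71, 95% interval -1.01 to -0.42, adjusted p = 0.00743). Both calls were close to the threshold of 0.01. Leaving out any 1 of the 6 libraries compared ended the call in either mutant, with adjusted p of 0.0356 to 0.0688 in TLR4-K730R and 0.0125 to 0.0348 in TLR4-K810R, while the log2 differences stayed at -0.85 to -0.78 and -0.78 to -0.66.

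Herc6 (ENSMUSG00000029798, chr6:57581000-57664632, plus strand), the E3, had the lowest mean FPKM of the 4 genes in each of the 6 groups. It was at 2.93, 4.45 and 4.87 FPKM in control TLR4-WT, 2.12, 8.94 and 4.19 in control TLR4-K730R and 1.77, 1.27 and 4.62 in control TLR4-K810R. With LPS it reached 40.7, 39.6 and 28.2 FPKM in TLR4-WT, 29.3, 24.9 and 31.3 for TLR4-K730R and 25.8, 25.7 and 25.7 for TLR4-K810R. The control groups overlapped, and with LPS the 3 TLR4-K810R libraries lay just below those of TLR4-WT. The rise after LPS was 2.87 ± 0.35, 2.43 ± 0.35 and 3.03 ± 0.35 on the log2 scale (limma adjusted p = 6.49e-06, 3.56e-05 and 4.44e-06), or 8.85-fold, 5.61-fold and 10.1-fold by the means.

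The value of 8.94 FPKM in control TLR4-K730R replicate 2 rests on first-exon events, since an intron-spanning event of the same gene was at 3.17 FPKM there. With that event in place of the first exons, chosen after the values were seen, the control difference between TLR4-K730R and TLR4-WT was -0.31 and not 0.12, and neither passed the test. Herc6 overlaps Gm45193 on the same strand, so a part of its first-exon FPKM may belong to that transcript.

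Usp18 (ENSMUSG00000030107, chr6:121245906-121270917, plus strand), the ISG15 protease, was listed with 1 first exon, which lies at its annotated start. It was at 22.6, 23.1 and 16.6 FPKM in control TLR4-WT, 6.24, 6.00 and 6.10 in control TLR4-K730R and 4.58, 3.39 and 4.10 in control TLR4-K810R. With LPS it reached 267, 288 and 193 FPKM in TLR4-WT, 200, 203 and 300 for TLR4-K730R and 151, 147 and 158 for TLR4-K810R. In control cells the 3 genotypes did not overlap, whereas with LPS TLR4-K730R overlapped with TLR4-WT and TLR4-K810R lay below both. The antisense transcript Gm44148 overlaps the gene, and the sources used here do not say whether the libraries keep strand.

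In order of the group means, Usp18 went from 4.03 ± 0.598 (SD, n = 3) in control TLR4-K810R over 6.11 ± 0.122 in control TLR4-K730R and 20.8 ± 3.59 in control TLR4-WT to 152 ± 5.6, 234 ± 56.7 and 250 ± 49.9 FPKM with LPS in TLR4-K810R, TLR4-K730R and TLR4-WT. Of the neighbours in this order, the mutants did not differ past the threshold in control cells (log2 difference of TLR4-K810R from TLR4-K730R -0.51, adjusted p = 0.262) or with LPS (-0.59, adjusted p = 0.0882), nor did TLR4-K730R and TLR4-WT with LPS (-0.10, adjusted p = 0.934). Usp18 was lower in both control mutants than in control TLR4-WT, with log2 differences of -1.60 ± 0.18 (SE) in TLR4-K730R (95% interval -1.97 to -1.23, limma adjusted p = 2.17e-04) and -2.11 ± 0.18 in TLR4-K810R (95% interval -2.48 to -1.74, adjusted p = 4.39e-06). Among the 9708 genes tested these were the 21st and the 17th lowest differences.

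LPS raised Usp18 12-fold in TLR4-WT, 38.3-fold in TLR4-K730R and 37.8-fold in TLR4-K810R by the means, or by 3.52 ± 0.18, 5.02 ± 0.18 and 4.94 ± 0.18 on the log2 scale (limma adjusted p = 2.85e-10, 5.06e-12 and 5.75e-12). The levels reached with LPS in TLR4-K730R were those of TLR4-WT within the spread. The larger fold in the mutants went with the lower control level. The response itself differed from that of TLR4-WT by 1.51 ± 0.25 in TLR4-K730R (adjusted p = 0.0362) and 1.42 ± 0.25 in TLR4-K810R (adjusted p = 0.0171), which missed the threshold of 0.01.

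**Figure D2:**
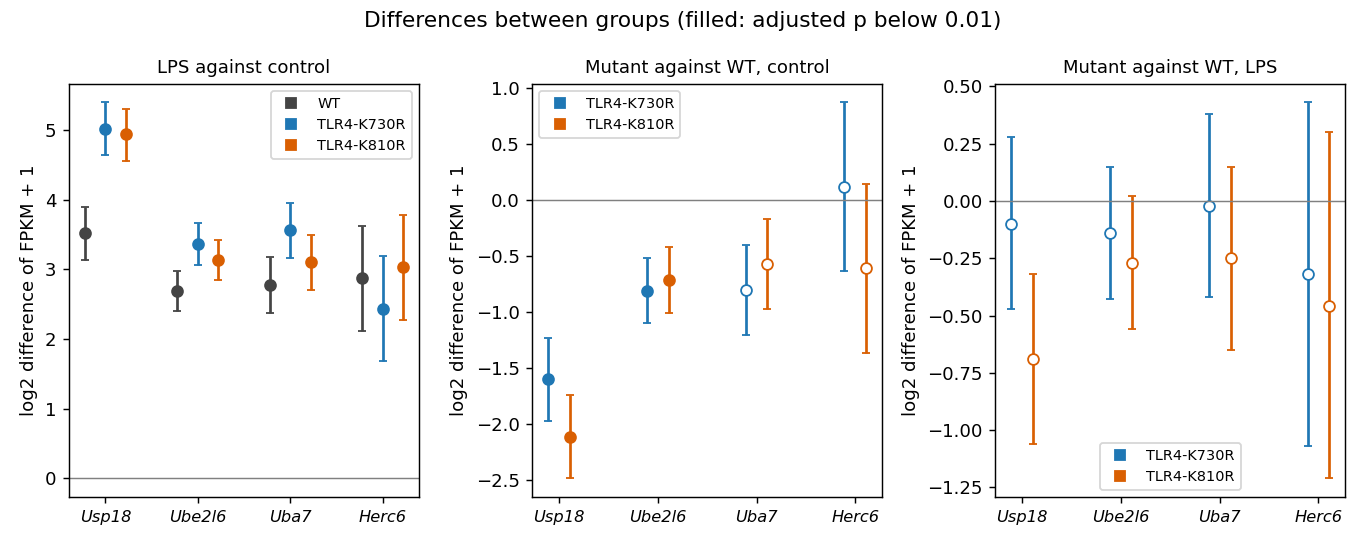
Log2 differences of FPKM + 1 with 95% intervals from the limma fit over all 18 libraries, for LPS against control in each genotype and for each mutant against TLR4-WT in control and in LPS-treated cells. Filled points passed an adjusted p of 0.01. All LPS responses are filled, Usp18 and Ube2l6 are filled in control mutants, and no point is filled among LPS-treated mutants.

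Counted over the 4 genes, 4 of 4 rose with LPS in TLR4-WT, where 10.4% of all 9708 tested genes rose, and likewise in TLR4-K730R (background 9.33%) and in TLR4-K810R (background 9.09%). The median log2 rise of the 4 genes was 2.82, 3.46 and 3.12, beside -0.28, -0.36 and -0.26 over all genes. The latter medians became -0.01, -0.04 and -0.03 when libraries were scaled by the median of ratios, and all 4 genes passed in each genotype under that scaling too. In bulk RNA, fewer cells of a type and less RNA per cell cannot be told apart. Summed neutrophil markers were also higher with LPS, at 172 to 245 FPKM against 25.4 to 47.3 in control libraries, with 2 of 7 markers reaching 1 FPKM in TLR4-WT and with Ly6g, Cxcr2 and Ngp at 0 in all its libraries. The summed macrophage markers given above were lower with LPS. In TLR4-K810R intestinal epithelial markers went from 52.8 to 111 FPKM in control to 0.127 to 19.5 with LPS and mesothelial markers from 11.4 to 27.5 to 5.24 to 6.97, and those of B cells from 1.65 to 2.85 to 0 to 0.919 FPKM. In TLR4-WT plasmacytoid dendritic cell markers went from 1.49 to 2.12 to 3.1 to 3.89 and mast cell markers from 3.37 to 4.18 to 1.14 to 3.07 FPKM, and in TLR4-K730R mesothelial markers went from 3.41 to 6.52 to 1.43 to 3.26 FPKM. Of the 6 plasmacytoid dendritic cell markers, 1 reached 1 FPKM in control TLR4-WT and 1 with LPS. The part of these cells in the rise was not tested.

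In control cells 2 of 4 genes were lower in TLR4-K730R, Usp18 and Ube2l6, where 0.216% of all tested genes were lower, and the same 2 were lower in TLR4-K810R, where the background was 0.649%. Both comparisons share the TLR4-WT control libraries. Limma restricted to the 2 groups compared called 0 of 4 genes in TLR4-K730R, with Usp18 at an adjusted p of 0.0128, and 1 of 4 in TLR4-K810R, where the Ube2l6 call was lost (adjusted p = 0.0407). The Ube2l6 call was also lost in both mutants without the intensity trend (adjusted p = 0.0174 and 0.0109), and in TLR4-K730R with median-of-ratios scaling (0.024), without the filter on low values (0.0138) and with first-exon events only (0.0115). Markers of other cells moved with genotype in the same libraries. The 8 intestinal epithelial markers summed to 0.118 to 0.67 FPKM in control TLR4-WT, with 6 of 8, among them Vil1 and Fabp1, at 0 in all 3 libraries, but to 42.1 to 68.5 FPKM in control TLR4-K730R, where 6 of 8 reached 1 FPKM, and 52.8 to 111 FPKM in control TLR4-K810R, where 7 of 8 did. Mesothelial markers were at 2.64 to 3.91 FPKM in control TLR4-WT, 3.41 to 6.52 in TLR4-K730R and 11.4 to 27.5 in TLR4-K810R, and mast cell markers at 3.37 to 4.18, 0.494 to 1.81 and 0.427 to 1.81 FPKM. Neutrophil markers were at 36.5 to 47.3 FPKM in control TLR4-K810R against 25.4 to 35.4 in control TLR4-WT, and B cell markers at 1.46 to 2.28 FPKM in control TLR4-K730R against 2.3 to 3.66. Their part in the control differences of Usp18 and Ube2l6 was not tested.

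With LPS 0 of 4 genes passed in TLR4-K730R against TLR4-WT (background 0%), with 0 of 4 at an unadjusted p below 0.05 by limma, as 7.68% of all tested genes were. The intestinal epithelial markers stood apart in these libraries too, at 48.4 to 56.1 FPKM in TLR4-K730R with LPS beside 0.0928 to 10.4 FPKM in TLR4-WT, and their part was not tested. In TLR4-K810R 0 of 4 passed as well (background 0.0824%), with 1 at an unadjusted p below 0.05, as 21.8% of all tested genes were. That gene was Usp18, at 1.64 times below TLR4-WT by the means (log2 difference -0.69, 95% interval -1.06 to -0.32, adjusted p = 0.0524). Without TLR4-WT replicate 3, the lowest of its group, the difference was -0.86 and passed (adjusted p = 0.00848). Over all 6 leave-one-out fits it ran from -0.86 to -0.58, with limma adjusted p of 0.00848 to 0.213. The intestinal markers summed to 0.127 to 19.5 FPKM in TLR4-K810R with LPS, which overlaps with TLR4-WT. Lung epithelial markers overlapped as well, at 1.25 to 34.7 beside 0.708 to 1.47 FPKM. Summed markers of plasmacytoid dendritic cells were lower with LPS in both mutants without overlap. They were at 2.39 to 2.57 FPKM in TLR4-K730R and 1.94 to 2.42 in TLR4-K810R against 3.1 to 3.89 in TLR4-WT. These sums are near the floor. Only 4 of the 6 markers were listed, and 2, 1 and 1 of them reached 1 FPKM in TLR4-K730R, TLR4-K810R and TLR4-WT with LPS. The part of these cells was not tested. For the other 3 genes the 95% intervals in TLR4-K810R were -0.65 to 0.15 for Uba7, -0.56 to 0.02 for Ube2l6 and -1.21 to 0.30 for Herc6, so decreases down to the lower bounds are within these intervals.

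Between the mutants 0 of 4 genes were called lower in TLR4-K810R than in TLR4-K730R in control cells (background 0.0721%) and with LPS (background 0.0309%), with 1 gene, Usp18, at an unadjusted limma p below 0.05 in each, beside 10.4% and 18.8% of all tested genes. The LPS response was not called larger than in TLR4-WT for any of the 4 genes in TLR4-K730R (background 0.0412%), with 3 at an unadjusted limma p below 0.05 beside 7.03% of all tested genes, or in TLR4-K810R (background 0.103%), with 2 at that level beside 13.2%. For Ube2l6 the responses differed by 0.67 (adjusted p = 0.453) and 0.45 (adjusted p = 0.335).

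Ratios within a library do not depend on how libraries are scaled. The ratio of Usp18 to Ube2l6, protease to E2, was 0.719, 0.813 and 0.545 in control TLR4-WT, 0.373, 0.359 and 0.364 in control TLR4-K730R and 0.232, 0.205 and 0.232 in control TLR4-K810R. With LPS it was 1.33, 1.42 and 0.98 in TLR4-WT, 1.08, 1.28 and 1.46 for TLR4-K730R and 1.18, 0.785 and 0.829 for TLR4-K810R. The control groups of the mutants did not overlap with TLR4-WT (exact permutation test, 2-sided, p = 0.1 for each, the smallest that 3 against 3 libraries allow), whereas the LPS groups did overlap (p = 0.9 and 0.2). Set against the other enzymes, Usp18 in TLR4-K810R with LPS did lie apart from TLR4-WT, with a mean log2 difference of -0.44 for the ratio to Uba7 and -0.22 for the ratio to Herc6 (exact permutation p = 0.1 for each). Usp18 thus stood lower relative to the E2 in unstimulated mutant cells, in every library. By contrast, the ratio of Ube2l6 to Uba7, E2 to E1, overlapped between groups in each of the 7 contrasts, with exact permutation p of 0.2 to 1.

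**Figure D3:**
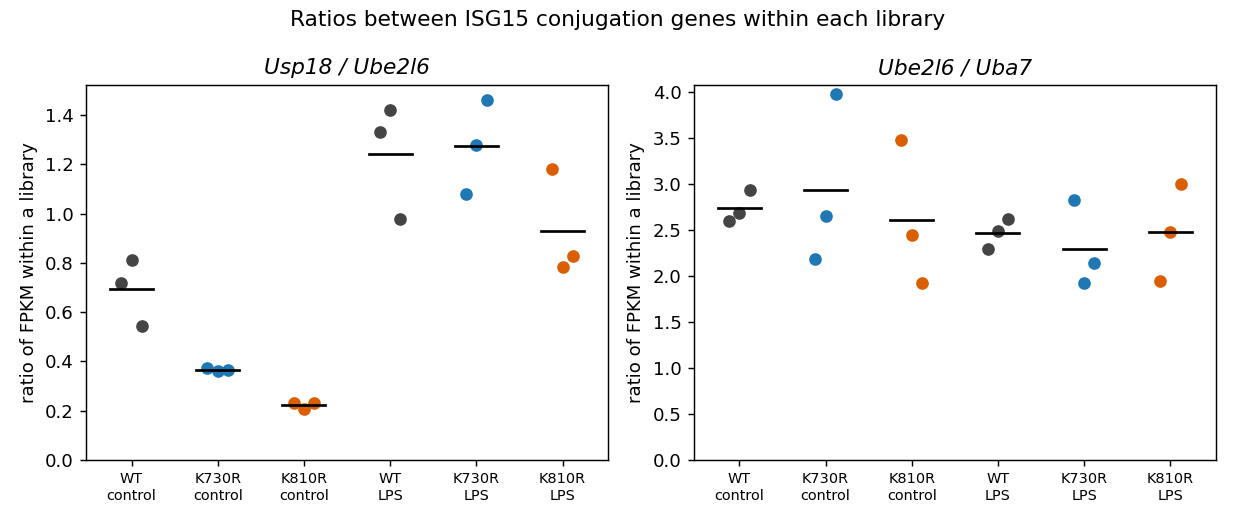
Ratio of Usp18 to Ube2l6 and of Ube2l6 to Uba7 within each library, on linear axes from 0, with the group mean as a line and n = 3 per group. The Usp18 to Ube2l6 ratio runs from 0.205 to 0.373 in control mutants and from 0.545 to 0.813 in control TLR4-WT, while the Ube2l6 to Uba7 ratio overlaps between all groups compared.

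Over the 18 libraries the 4 genes varied together, with pairwise Pearson r of 0.94 to 0.99 on the log2 scale. These values rest on the shift between control and LPS, since r was 0.05 to 0.33 once group means were removed. The 8 genes whose pattern was most like the mean of the 4 were Rnf114, Parp12, Ccl9, Ms4a4c, Ifi35, Phf11b, Helz2 and Mx1, with r of 0.994 to 0.996 over 18 libraries, and 318 of 9704 genes exceeded 0.95. Mx1, an antiviral GTPase, went from 0.876 to 11.4 FPKM in control to 183 to 532 FPKM in LPS-treated libraries.

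Among 6 genes of the interferon receptor and ISGF3, 5 were tested. In TLR4-WT 3 rose with LPS, in TLR4-K730R 2 rose and 1 fell, and in TLR4-K810R 3 rose, beside rises in 10.4%, 9.33% and 9.09% of all tested genes and falls in 26.5% of them in TLR4-K730R. Stat2, a subunit of ISGF3, rose by 2.44, 3.21 and 2.58 on the log2 scale (limma adjusted p = 5.71e-08, 2.15e-09 and 3.2e-08). Irf9, the DNA-binding subunit, rose by 0.61, 1.48 and 1.36. The receptor gene Ifnar1 rose in TLR4-WT (0.57) and TLR4-K810R (0.80), and the kinase gene Jak1 fell by 0.34 in TLR4-K730R. None of the 5 was called between genotypes by limma, with 4 at an unadjusted p below 0.05 in at least 1 comparison, beside 45.5% of all tested genes. Control levels of Stat2 were 11.5 to 13 FPKM in TLR4-WT, 3.67 to 6.82 in TLR4-K730R and 6.16 to 6.56 in TLR4-K810R, without overlap between TLR4-WT and the mutants.

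Of 8 genes that induce interferon downstream of TLR4, 5 were tested, and Ifnb1, Ticam1 and Ticam2 were not listed. In control cells 1 of the 5 was called lower in each mutant, beside 0.216% of all tested genes in TLR4-K730R and 0.649% in TLR4-K810R. The other 4 were not called and had log2 differences above 0 in both mutants. The gene called was Irf7, the factor that amplifies interferon production. Irf7 was at 74.6 to 140 FPKM in control TLR4-WT, 6.86 to 28.7 in TLR4-K730R and 13 to 18.3 in TLR4-K810R, with log2 differences from TLR4-WT of -3.03 (limma adjusted p = 3.71e-04) and -2.75 (adjusted p = 3.88e-04). With LPS it was at 649 to 930 FPKM in all genotypes, a rise of 2.95, 5.95 and 5.47. Ikbke, a kinase of the IRF factors, rose by 1.52, 1.16 and 1.31, and Tbk1 rose in TLR4-WT (1.11).

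Of 12 other genes known to act on ISG15 or USP18, 9 were tested. With LPS 1 rose and 3 fell in TLR4-WT, 1 rose and 3 fell in TLR4-K730R, and 2 rose and 1 fell in TLR4-K810R. Over all tested genes 10.4%, 9.33% and 9.09% rose and 23.9%, 26.5% and 19.7% fell, so these counts were near the background. Itgal, which encodes a chain of the LFA-1 integrin that binds secreted ISG15, rose by 0.60, 0.68 and 1.07 and was lower in control TLR4-K810R than in TLR4-WT (log2 difference -0.64, adjusted p = 0.0066). Sqstm1, an autophagy receptor, rose in TLR4-K810R (0.90). Bag3 fell in all 3 genotypes, Hdac6 fell in TLR4-WT and TLR4-K730R, Usp21 fell in TLR4-WT and Skp2 fell in TLR4-K730R.

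The genes of ubiquitin and of other ubiquitin-like proteins were set beside the ISG15 genes. Of 10 tested ubiquitin counterparts 0 rose in any genotype by limma, with 3 higher at an unadjusted p below 0.05 beside 19.2% of all tested genes, and Uba6 (-0.90) and Herc4 (-0.61) fell in TLR4-K730R. Among 13 tested genes of the NEDD8, SUMO, UFM1 and URM1 systems 0 rose, with 1 higher at an unadjusted p below 0.05, Ufc1 fell in TLR4-WT (-1.02), and Nedd8 fell in TLR4-K730R (-0.61). With 9.09% to 10.4% of all tested genes called higher, counts of 0 in lists of this size are near the background. None of these genes was called between genotypes, where 4 of the 10 and 7 of the 13 had an unadjusted p below 0.05 in at least 1 comparison, near the 45.5% of all tested genes.

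**Figure D4:**
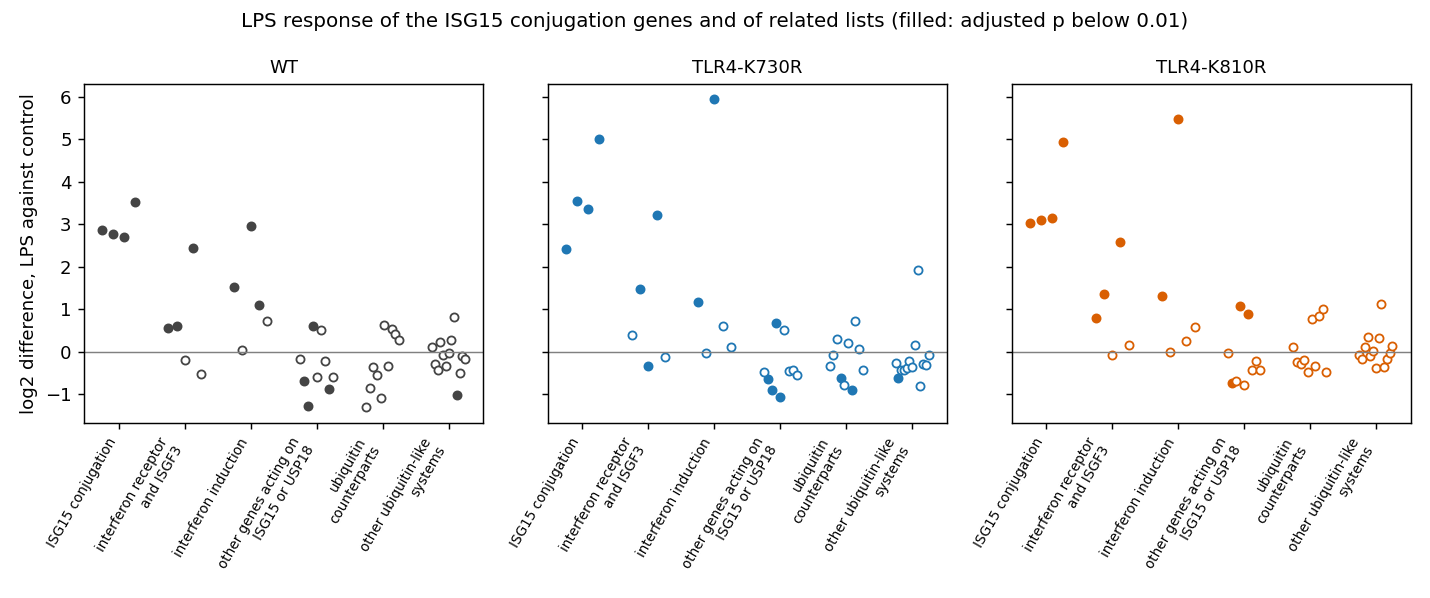
Log2 difference of FPKM + 1 between LPS and control for each tested gene of the ISG15 conjugation system and of 5 related lists, in TLR4-WT, TLR4-K730R and TLR4-K810R, with 1 point per gene. Filled points passed an adjusted p of 0.01. The 4 ISG15 conjugation genes lie between 2.43 and 5.02, and the filled points of the ubiquitin counterparts and of the other ubiquitin-like systems lie below 0.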

How the data were processed

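The authors deposited FPKM values per transcript event (20 kinds) for each of 18 libraries. RNA was isolated with a column kit and sequenced on an Illumina platform. The aligner and the counting program are not given in the sources used here. The submitters' processing notes name hg 18 as genome build, whereas the coordinates are mouse and match GRCm38 (14126 of 14138 gene numbers found in GENCODE).

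Only events overlapping their gene on its own strand were kept, which removed 5.99% of first-exon and last-exon FPKM. The larger of both sums gave the value of a gene. Uba7 was valued by position, a choice made after the files were seen. The 9708 genes reaching 1 FPKM in 3 or more libraries entered limma 3.58.1 (R 4.3.3) as log2(FPKM + 1), all 6 groups in one fit, with an intensity trend, 2-sided, Benjamini-Hochberg adjustment per comparison and a threshold of 0.01, over 11 comparisons. Isg15 met this rule, but its result was not used. Of the 5 genes, results were used for the 4 with a value above 0 in every library, a rule not applied to other genes. The script was tested on simulated data. Python 3.11.15 with pandas 2.3.3 served for all other values. Alternatives covered pseudocount, filters, scaling, trend, weights, block, libraries, events and threshold. The 5 genes and all lists were chosen with earlier results of these data known. Named list genes are those called in the comparison described, at most 4 per list and comparison, and the lists do not cover every gene of their pathway, since some are not reported here. No per-gene counts were used, and a count test was not possible. Splicing events beyond those named were not analysed here.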

Additional observations from a re-analysis of the deposited data

Results flagged for a closer look

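Isg15 had events on the strand opposite to the gene, which entered no comparison. They were listed in 8 of 9 LPS-treated libraries and in 1 of 9 control libraries, and 8 of the 9 LPS-treated libraries stood above the highest control value, while TLR4-K810R replicate 3 with LPS was listed at 0. As for the own strand, a 0 is not read as absence. The highest value was 44.6 FPKM, in TLR4-WT replicate 1 with LPS, followed by 41.7 and 12.7 FPKM in TLR4-K730R replicates 2 and 3, and the highest control value was 0.53 FPKM in TLR4-K730R replicate 1. In TLR4-K730R with LPS these events were the form in which Isg15 was listed, since its own-strand value was 0 in all 3 libraries.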

How the results depend on the processing

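The LPS calls of all 4 genes kept their direction and their side of the threshold in each genotype under all alternatives, leave-one-out fits included (4 of 4 throughout), with 2 exceptions. With last-exon events alone, 2 genes per genotype were tested and called, since Ube2l6 had no such events and those of Herc6 stayed below 1 FPKM. Without a value for Uba7, 3 of 3 were called. The count of genes lower in control mutants was less stable. In TLR4-K730R it was 1 and not 2 without the filter on low values, with median-of-ratios scaling, without the intensity trend, with first-exon events only, with last-exon events only, and in the 6 leave-one-out fits (lowest 1, highest 1), and 0 with only the groups compared. In TLR4-K810R it was 1 without the trend, with only the groups compared, with last-exon events only and in the 6 leave-one-out fits (lowest 1, highest 1). Where values of both were available, Ube2l6 was the call lost, and Usp18 also missed in TLR4-K730R with only the groups compared. Against TLR4-WT with LPS, TLR4-K810R had 1 call with array weights and 0 to 1 in leave-one-out fits (1 without TLR4-WT replicate 3), in both cases Usp18. The larger LPS response of Usp18 was called (1 gene) in TLR4-K730R with array weights and at a threshold of 0.05, and in TLR4-K810R with a pseudocount of 0.1, quantile normalization, array weights and a threshold of 0.05.

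The replicate block left 1 call in each control mutant, Usp18, and changed no other count. The numbers do not pair the libraries. Same-numbered libraries correlated at -0.32 to 0.10 in their deviations from the group means, and others at -0.12 to 0.27.

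Of 983 values of single genes under alternatives, 938 kept direction and side, and 15 changed sign, 0 of which had been called. Uba7 in TLR4-K730R with LPS changed to 0.04 (median-of-ratios), 0.03 (quantile), 0.05 (last exons) and 0.05 (annotated first exon), and ran from -0.14 to 0.13 in leave-one-out fits (0.04 without TLR4-WT replicate 1). Herc6 in TLR4-K730R changed to -0.31 in control and 0.01 in the response with its intron-spanning event, and its control difference ran from -0.32 to 0.52 in leave-one-out fits. Leave-one-out fits also turned the sign of Usp18 in TLR4-K730R with LPS (-0.29 to 0.02), of the Herc6 response in TLR4-K810R (-0.11 to 0.54) and of Ube2l6 between mutants with LPS (-0.23 to 0.06). The cause was not tested. The alternatives for the events of Uba7 and Herc6 were chosen after seeing the data. The depth is unknown, so precision at low FPKM cannot be given.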
